A study of Mus musculus with 11 samples.

Results

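The 50 genes described here are the protein-coding genes of the mouse whose symbols begin with Psma to Psmg, taken from the 54838 Ensembl gene identifiers in the count tables. Of these, 14 encode the 20S core (7 alpha and 7 beta subunits), 17 the 19S regulatory particle (6 ATPases and 11 non-ATPase subunits), 3 the immunoproteasome beta subunits, 6 the activators with the inhibitor Psmf1, and 7 the assembly factors. A further 2 are tissue-restricted core subunits, and Psmc3ip, a meiotic recombination factor, matches only by its symbol. RNA-seq was carried out on E14 mouse embryonic stem cells (ESCs) grown on gelatin in serum replacement with LIF. Groups were a scramble siRNA (control, 3 libraries), CMTR1 siRNA 1 (4 libraries) and CMTR1 siRNA 2 (4 libraries), all harvested at 36 h. All groups were the same line transfected with an siRNA, and no untransfected cells were analysed here. The study's methods state 3 biological replicates for PCR or sequencing, whereas each CMTR1 siRNA has 4 libraries. The labels number the libraries without saying that each came from its own culture, so p-values measure the spread between these libraries. The comparison asks how the transcripts of this complex stood when CMTR1, which methylates the ribose of the first transcribed nucleotide beside the mRNA cap, was targeted.

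Between 6738478 and 8382318 reads per library fell in genes. Cmtr1 itself was at 17.9 to 21.7 CPM (counts scaled to library size) in control, 16.2 to 21.3 CPM with siRNA 1 and 15.6 to 19.5 CPM with siRNA 2. These ranges overlapped, and the log2 fold changes of -0.09 (SE 0.11, FDR = 0.743) and -0.25 (SE 0.11, FDR = 0.144) in edgeR's quasi-likelihood test were not called. CMTR1 protein was not analysed here. All 12 ESC markers passed the filter on low counts, and they summed to 2737 to 2862 CPM in control, 2379 to 2615 CPM with siRNA 1 and 2512 to 2663 CPM with siRNA 2. Of these 12, 6 were called lower with siRNA 1 and 4 with siRNA 2, and 0 were called higher. Over all genes tested, 1.97% and 3.55% were called lower. The lowest log2 fold change was that of Nanog with siRNA 1 (-0.57) and that of Tfcp2l1 with siRNA 2 (-0.60), so the ESC markers were not unchanged. Markers of other cells were low: 8 fibroblast markers summed to 39.2 to 48.6 CPM in control, 38.1 to 51.6 CPM with siRNA 1 and 49.2 to 55.1 CPM with siRNA 2. With siRNA 2, 2 of the 6 tested rose (Col1a1 and Dcn) and 1 fell (Col3a1), beside 9.72% of all genes called. Dcn was at 1.19 to 4.53 CPM, and Col3a1 had at most 17 reads in any library. Lum and Postn had at most 1 read in any library, whereas Pdgfra was at 12.3 to 23.2 CPM and Col1a2 at 8.88 to 15.2 CPM. The 7 blood markers summed to 10.4 to 16.9 CPM and the 6 extraembryonic endoderm markers to 37.4 to 53.1 CPM over all libraries. Of these, 2 blood and 5 endoderm markers passed the filter, and none was called against control. Cd68 averaged 10.7 CPM in control and Cd3e was at 2.08 to 5.26 CPM, whereas Ptprc and Lyz2 had at most 3 reads and 1 read. Their part in the results below was not tested.

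The proteasome degrades proteins tagged with ubiquitin. In the 20S core, alpha rings gate a chamber lined by beta rings, in which Psmb5, Psmb6 and Psmb7 carry the catalytic sites. The 19S particle binds the ubiquitin chain, removes it and threads the substrate inward with its ATPases. Chaperones build the alpha ring and the 19S base, and alternative activators (PA28 and PA200) can take the place of the 19S. Interferon-induced cells swap the catalytic subunits for Psmb8, Psmb9 and Psmb10. ESCs are known for high proteasome activity, and NRF1, encoded by Nfe2l1, drives proteasome genes together when the proteasome is short.

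Because CMTR1 acts on the first transcribed nucleotide, the first 20 bases of the principal GENCODE transcript are shown for the members whose levels differed in at least 1 comparison, 5′ to 3′ on GRCm38, with the annotated first base in capitals. Psmg2, which also differed, is not shown.
Psmb7 (chr2:38644068-38644087, minus strand): Gacttgaggcaaaactactt
Psmb2 (chr4:126677630-126677649, plus strand): Gactgggccgtcgcgcgtct
Psmc4 (chr7:28050082-28050101, minus strand): Caagatgctctatgtgaagg
Psmd14 (chr2:61711694-61711713, plus strand): Gactccaattggcggtagaa
Psme3 (chr11:101316213-101316232, plus strand): Aacttccggcgtgagcggcg
Psme4 (chr11:30771726-30771745, plus strand): Aagtgacttgaggccggtcc
Psmd9 (chr5:123228190-123228209, plus strand): Atctgtttccgtacttgcgc
Psmb10 (chr8:105938425-105938444, minus strand): Tgccctcttctgaccttggt
The first base differed among these members: G in Psmb7, Psmb2 and Psmd14, A in Psme3, Psme4 and Psmd9, C in Psmc4 and T in Psmb10. Over the 48 members tested, G was the first base in 22 (45.8%), A in 12 (25.0%), and C and T in 7 each (14.6%). Over 13158 protein-coding genes tested these shares were 46.3%, 25.8%, 17.6% and 10.3%. A C followed by 4 pyrimidines, the start of a terminal oligopyrimidine mRNA, was in 0 of the 48 members and in 306 (2.33%) of the protein-coding genes. Annotated starts are not mapped starts, and these shares are a description with no test.

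Promoter letters shared by the members were also searched. The 250 bases before the RefSeq starts (GRCm38.p6) were at hand for 42 members and 27025 genes. Psmb7, Psmb2 and Psmg2 are among the members without these bases, so their promoters were not searched for any motif. The letters CCGGAAG, the core of an ETS factor site, were found on either strand in 13 members (31.0%) and in 7.83% of all genes. They were in 8 of 14 19S promoters and 1 of 11 20S promoters, and Psmc3ip, which matches only by its symbol, is among the 13. The 19S matches are printed with 10 bases on either side, on the strand of the gene and with the motif in capitals (CTTCCGG is its reverse complement), to show the letters the promoters have in common.
Psmc1 (chr12:100110164-100110190): ggtggatgcaCTTCCGGcggtggcgat
Psmc2 (chr5:21785181-21785207): ccagtgagcaCTTCCGGgatggggctc
Psmc6 (chr14:45329714-45329740): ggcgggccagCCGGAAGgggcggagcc
Psmd2 (chr16:20651616-20651642): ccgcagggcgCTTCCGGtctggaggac
Psmd4 (chr3:95042723-95042749): tacagctgttCCGGAAGctgctgcgaa
Psmd6 (chr14:14120974-14121000): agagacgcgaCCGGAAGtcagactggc
Psmd11 (chr11:80428594-80428620): gagggcgggtCTTCCGGgtgtgtgttt
Psmd12 (chr11:107479501-107479527): gagcgggcgaCTTCCGGtgcgagtgac
Psmc2 has another match, at a different annotated start. Psmd4 and Psmd6 lie on the minus strand of the genome and the others on the plus strand. The other motifs were searched on both strands. TGACNNNGC, the core of an antioxidant response element, which NRF1 can bind, was in 5 members (11.9%, all genes 11.5%). CCAAT was in 15 (35.7%, all genes 37.5%), 6 of them among 11 20S promoters. The STAT motif TTCNNNGAA was in 2 (4.76%, all genes 8.13%) and GAAANNGAA, as in interferon response elements, in 3 (7.14%, all genes 8.18%). The gene set at large was not matched for base composition or expression: it was not limited to the 16073 genes tested, whereas nearly all members were tested. A match is not a site.

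All core and particle genes were detected in control ESCs, and their level was not ranked against other genes or other cells. Together the 31 core and particle genes summed to 4643 ± 128 CPM (SD, n = 3), of which the 19S gave 2965 ± 68.3 CPM and the 20S 1679 ± 66.7 CPM. Per kilobase of all annotated exons, the lowest 20S gene was Psmb5, the chymotrypsin-like subunit, at 19.7 ± 0.373 CPM per kb, and the highest was Psma6 at 105 ± 5.76 CPM per kb, 5.32-fold higher. In the 19S, Psmc2 was lowest at 27.1 ± 0.608 CPM per kb and Psmc5 highest at 108 ± 7.92 CPM per kb, 3.98-fold higher. This order depends on the length used. Per kilobase of the principal transcript, the 20S ran from Psmb5 at 19.7 to Psmb6 at 192 CPM per kb (9.78-fold) and the 19S from Psmc6 at 54.6 to Psmc4 at 138 CPM per kb (2.53-fold). On that scale all 17 19S genes and 12 of 14 20S genes lay within 2-fold of the median of their class. Psmb5 shares 36.8% of its 75-nt words with other genes, mostly with Gm3375 (64 to 112 reads per library). It also shares 12.1% of its exon bases with Mir686 on the same strand. Psma5 shares 35.2% of its words, mostly with Gm8394, and was at 87.4 CPM per kb of exon. Whether reads of Psmb5 were dropped as not unique was not tested.

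**Figure D1:**
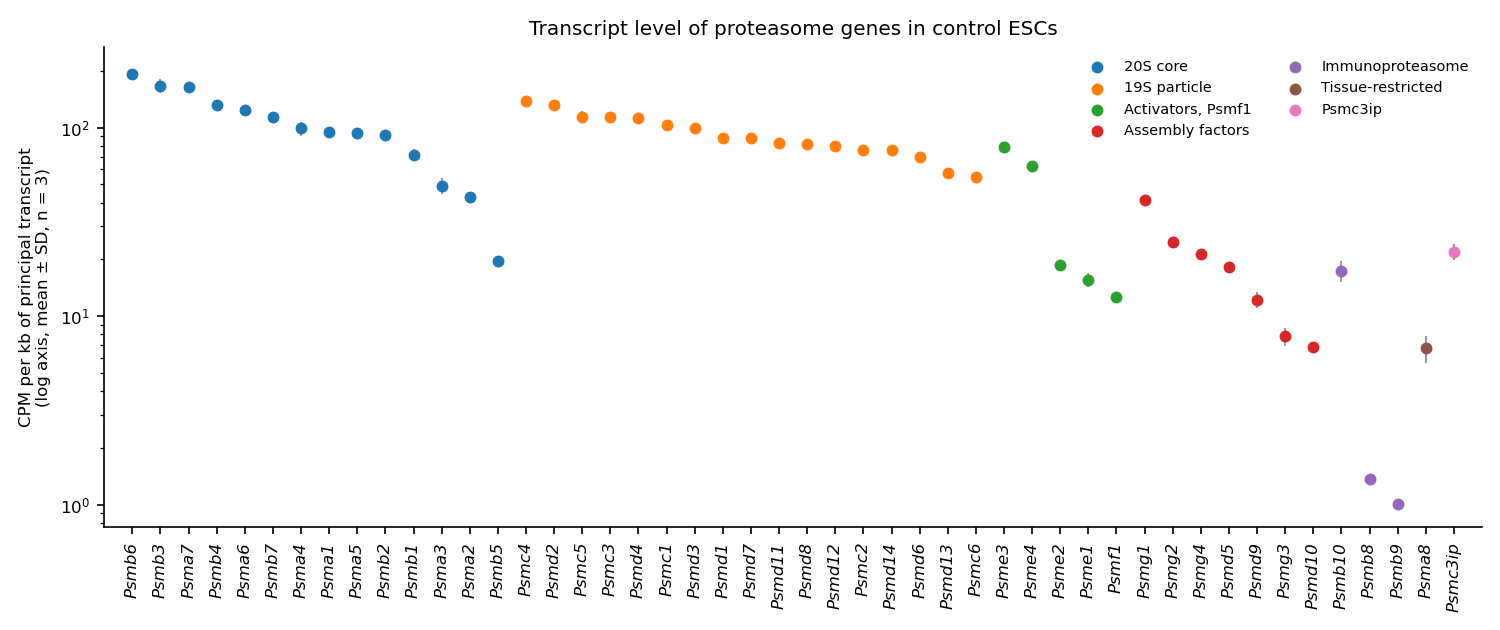
Each point is the mean control level of a member in CPM per kilobase of its principal transcript on a log axis, with the SD of 3 libraries, grouped by class. The 17 19S genes lie between 54.6 and 138 CPM per kb, Psmb5 is the lowest of the 20S at 19.7, and Psmb8 and Psmb9 are near 1.

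Of the 50 genes, 48 passed the filter on low counts, and the share of these that was called was near that of all genes. With siRNA 1, 2 of 48 members (4.17%) were called, both higher, beside 4.67% of all genes tested (2.71% higher, 1.97% lower). With siRNA 2, 5 members were called higher and 1 lower (12.5% in all), beside 9.72% of all genes (6.17% higher, 3.55% lower). With the mean of both siRNAs, 2 were called, beside 6.91%. By unadjusted p below 0.05, 2 of 48 members passed with siRNA 1 (4.17%) and 13 with siRNA 2 (27.1%), against 16.8% and 23.2% of all genes. No called member changed 1.5-fold, Psmb7 with siRNA 1 being the furthest at 1.32-fold. With siRNA 1, 5 members did not overlap control, against 15.5% of all genes, and with siRNA 2, 8 did not, against 19.4%. Between the siRNAs, 4 members did not overlap, against 11.8%.

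In the core, 2 of the 14 genes were called with each siRNA, both of them beta subunits. Psmb7 (trypsin-like catalytic subunit) and Psmb2 (non-catalytic beta subunit) rose with both siRNAs, by 18 to 32%, while no alpha subunit was called. Both siRNAs are compared with the same 3 control libraries, so the paired rises are not independent of each other. Of the 48 members tested, Psmb7 and Psmb2 were the 2 called higher with both siRNAs, beside 1.26% of all 16073 genes tested.

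Psmb7 (ENSMUSG00000026750, chr2:38588036-38644087, minus strand) was at 137, 131 and 129 CPM in control. It was at 161, 175, 190 and 173 CPM with siRNA 1 and at 174, 166, 168 and 173 CPM with siRNA 2. All 8 CMTR1 siRNA libraries stood above all 3 control libraries. The log2 fold change was 0.40 (SE 0.05, FDR = 1.42e-06) with siRNA 1 and 0.37 (SE 0.05, FDR = 3.71e-06) with siRNA 2, a rise of 31.9% and 28.8%. Of its exon bases, 11.8% overlap Nek6 on the opposite strand, and the strand setting of the counting is not given in the sources used here. Nek6 had 155 to 233 reads per library against 962 to 1440 for Psmb7, with log2 fold changes of 0.16 (FDR = 0.372) and 0.17 (FDR = 0.247).

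Psmb2 (ENSMUSG00000028837, chr4:126677630-126709714, plus strand) was at 80.6, 73.0 and 81.8 CPM in control. It was at 93.8, 89.9, 91.0 and 96.5 CPM with siRNA 1 and at 98.0, 105, 92.2 and 91.0 CPM with siRNA 2. Each siRNA group stood wholly above control, and the siRNA groups overlapped each other. The log2 fold change was 0.24 (SE 0.06, FDR = 0.00968) with siRNA 1 and 0.30 (SE 0.06, FDR = 0.000586) with siRNA 2. The call with siRNA 1 rested on control replicate 2, without which the log2 fold change was 0.19 (FDR = 0.144).

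The other 12 core genes were not called with either siRNA. The lowest 20S values were -0.02 for Psma6 with siRNA 1 and -0.08 for Psma7 with siRNA 2. Of the other catalytic subunits, Psmb6 had values of 0.04 and 0.02, and Psmb5 of -0.01 and 0.09 (SE 0.10 in each). Psmb5 was higher in all 4 siRNA 2 libraries, at 18.2 to 19.7 CPM, than in all 3 control libraries, but was not called (FDR = 0.644, 95% interval -0.10 to 0.28). The median of the 14 log2 fold changes was 0.03 with each siRNA, against 0.02 and 0.03 over all genes tested. The alpha genes had medians of -0.01 with siRNA 1 and of 0.0037 with siRNA 2, and the beta genes of 0.04 with each. Every 95% interval of the 31 core and particle genes lay inside a 1.5-fold change in both comparisons, as did those of 70.8% and 69.6% of all genes. The median SE of these 31 genes was 0.05 and that of all genes 0.11 in each comparison.

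**Figure D2:**
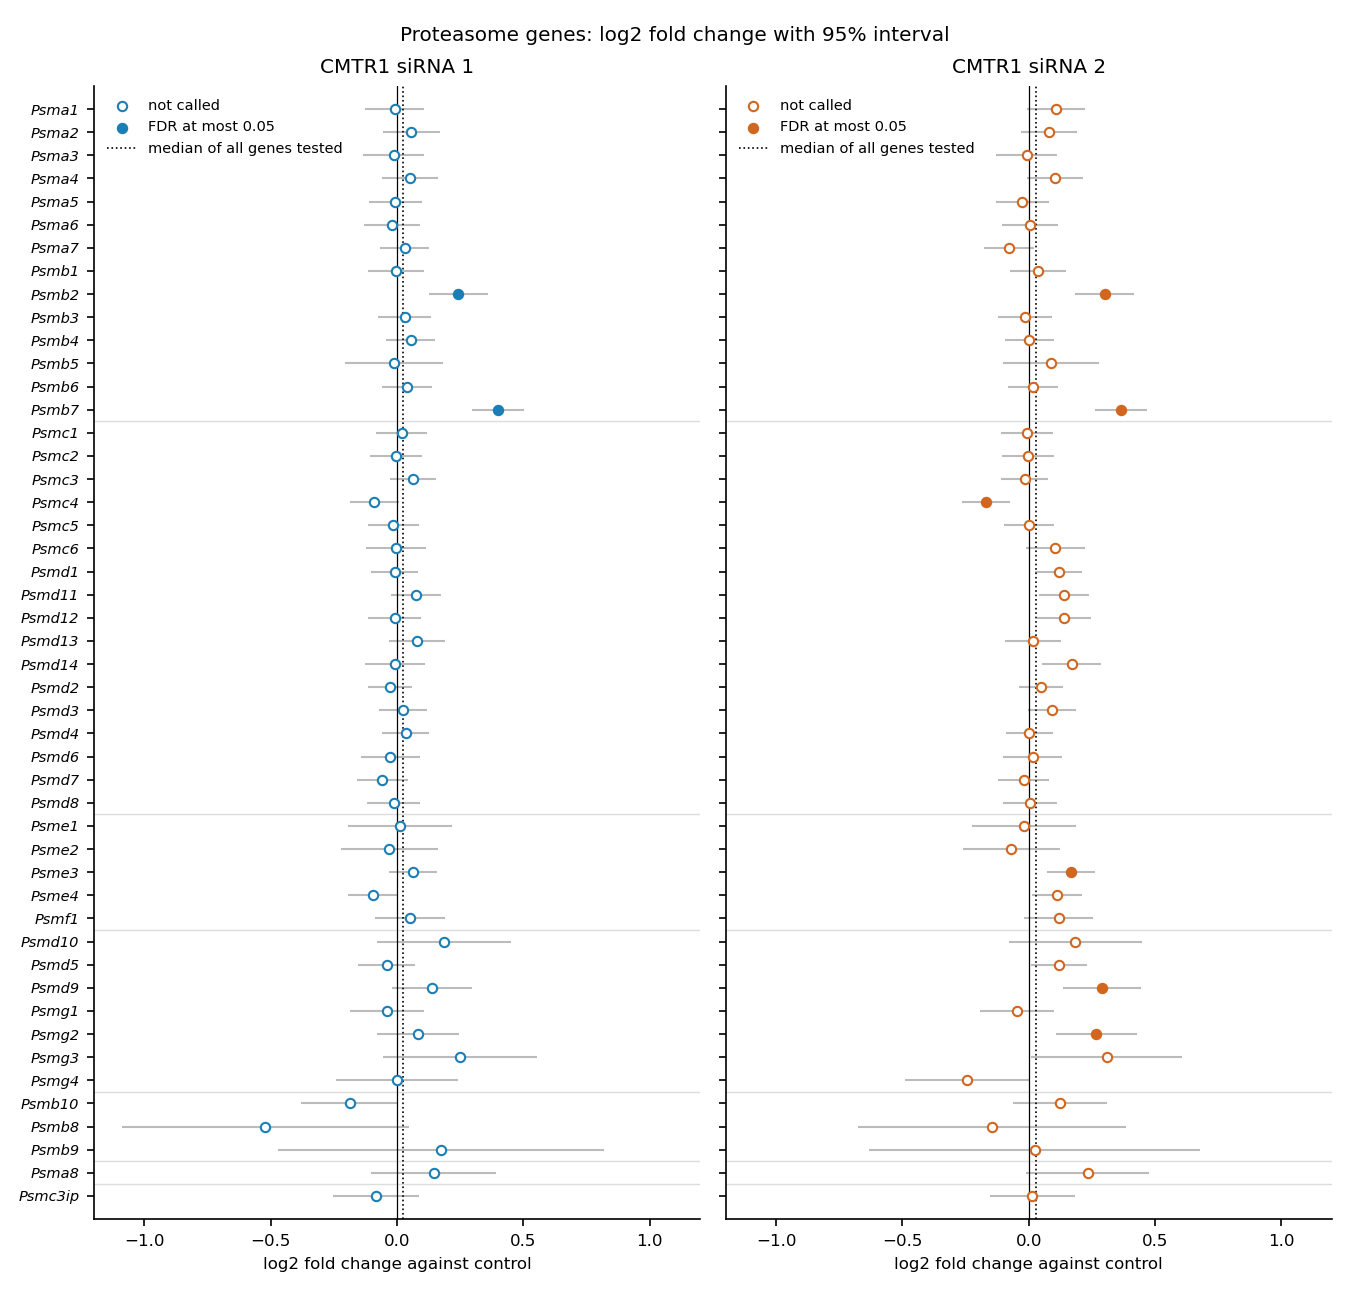
Log2 fold changes against control (horizontal axis) of the 48 members tested, with 95% intervals, for siRNA 1 (left) and siRNA 2 (right); filled points are called and the dotted line is the median of all genes tested. Psmb7 and Psmb2 are the filled points in both panels, and the widest intervals belong to Psmb8 and Psmb9.

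In the 19S particle, no gene rose and Psmc4 fell with siRNA 2. Psmc4 (Rpt3, a base ATPase, ENSMUSG00000030603) was at 184, 209 and 203 CPM in control, at 190, 181, 183 and 193 CPM with siRNA 1 and at 181, 179, 170 and 176 CPM with siRNA 2. The siRNA 2 libraries were all below the control libraries, whereas those of siRNA 1 overlapped control replicate 1. The log2 fold change was -0.17 (SE 0.05, FDR = 0.0204) with siRNA 2 and -0.09 (SE 0.05, FDR = 0.355) with siRNA 1, and siRNA 2 against siRNA 1 gave -0.08 (FDR = 0.325). The call was lost without control replicate 2 (log2 fold change -0.13, FDR = 0.172) or control replicate 3 (-0.15, FDR = 0.108).

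The remaining 16 particle genes were not called. Over all 17, an unadjusted p below 0.05 was found in 5 with siRNA 2 (29.4%, against 23.2% of all genes) and in 0 with siRNA 1 (against 16.8%). With siRNA 1 the highest was Psmd13, a lid subunit, at 0.08 (SE 0.06, FDR = 0.535). With siRNA 2 it was Psmd14, the deubiquitinase of the lid, at 0.17 (SE 0.06, FDR = 0.0608). Medians were -0.01 and 0.01, and 11 of 17 values were below 0 with siRNA 1 and 5 of 17 with siRNA 2. Over all genes tested, 43.2% and 42.9% of values were below 0. The sign of the median with siRNA 2 depends on scaling: edgeR's TMM factors in place of total counts gave -0.03 with siRNA 1 and -0.01 with siRNA 2. With siRNA 2 the 11 non-ATPase genes had a median of 0.05 and the 6 ATPases of -0.0041.

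Among the activators Psme3 rose with siRNA 2, and among the assembly factors Psmd9 and Psmg2 did. With siRNA 1 these 3 genes were not called, and the siRNAs compared with each other did not differ past the threshold in any of them (log2 differences 0.10, FDR = 0.155, 0.15, FDR = 0.211, and 0.19, FDR = 0.128). Psme3 (PA28 gamma, the nuclear activator) was at 203, 221 and 208 CPM in control, at 215, 215, 228 and 224 CPM with siRNA 1 and at 243, 251, 224 and 229 CPM with siRNA 2. The log2 fold change was 0.17 (SE 0.05, FDR = 0.0201) with siRNA 2 and 0.06 (SE 0.05, FDR = 0.557) with siRNA 1. The siRNA 2 libraries were all above the control libraries, siRNA 2 replicate 3 being nearest to control replicate 2, and the call was lost with TMM factors (0.14, FDR = 0.0593). It was also lost without control replicate 1 (0.14, FDR = 0.111) or 3 (0.16, FDR = 0.0907), or siRNA 2 replicate 1 (0.15, FDR = 0.0651) or 2 (0.14, FDR = 0.0785). Psme1 and Psme2, the interferon-inducible PA28 subunits, were near 17 CPM and were not called, Psme2 being the lowest of the class with siRNA 2 at -0.07 (FDR = 0.728).

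Psmd9, a chaperone of the 19S base, was at 30.3, 29.7 and 35.1 CPM in control, at 33.7, 35.0, 34.1 and 36.5 CPM with siRNA 1 and at 42.2, 40.1, 35.6 and 37.0 CPM with siRNA 2. Its log2 fold change was 0.29 (SE 0.08, FDR = 0.0132) with siRNA 2 and 0.14 (SE 0.08, FDR = 0.398) with siRNA 1. Control replicate 3 and siRNA 2 replicate 3 were less than 1 CPM apart. Psmd9 overlaps Gm26745 on the opposite strand over 25.5% of its exon bases, and Gm26745 had 0 or 1 read per library. The strand setting of the counting is not given, and the part of this overlap was not tested. Psmg2, a chaperone of the alpha ring, was at 25.9, 26.0 and 26.4 CPM in control, at 27.9, 28.7, 26.0 and 27.9 CPM with siRNA 1 and at 31.1, 32.4, 28.6 and 33.3 CPM with siRNA 2. Its log2 fold change was 0.27 (SE 0.08, FDR = 0.0279) with siRNA 2 and 0.08 (SE 0.08, FDR = 0.686) with siRNA 1. The call of Psmd9 was lost without control replicate 1 (0.26, FDR = 0.0676) or 2 (0.24, FDR = 0.106) or siRNA 2 replicate 1 (0.25, FDR = 0.0622). That of Psmg2 was lost without any 1 control replicate or siRNA 2 replicate 1, 2 or 4 (0.24 to 0.28, FDR = 0.0507 to 0.0924), and with a filter of at least 1 read in any library (0.27, FDR = 0.0529).

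The median of the 7 assembly factors was 0.08 with siRNA 1 and 0.18 with siRNA 2, and their values spread widely. Psmg3, another alpha-ring chaperone and among the least abundant members at 49 to 86 reads per library, had the highest value of the class in both (0.25, FDR = 0.436, and 0.31, FDR = 0.214). Its 95% interval with siRNA 2 (0.009 to 0.608) includes a 1.5-fold rise. Psmg4, the partner of Psmg3, was the lowest with siRNA 2 at -0.24 (SE 0.13, FDR = 0.237) and had a value of -0.00045 (FDR = 0.999) with siRNA 1. Psmd5, a chaperone of the 19S base, was the lowest with siRNA 1 at -0.04 (FDR = 0.792).

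**Figure D3:**
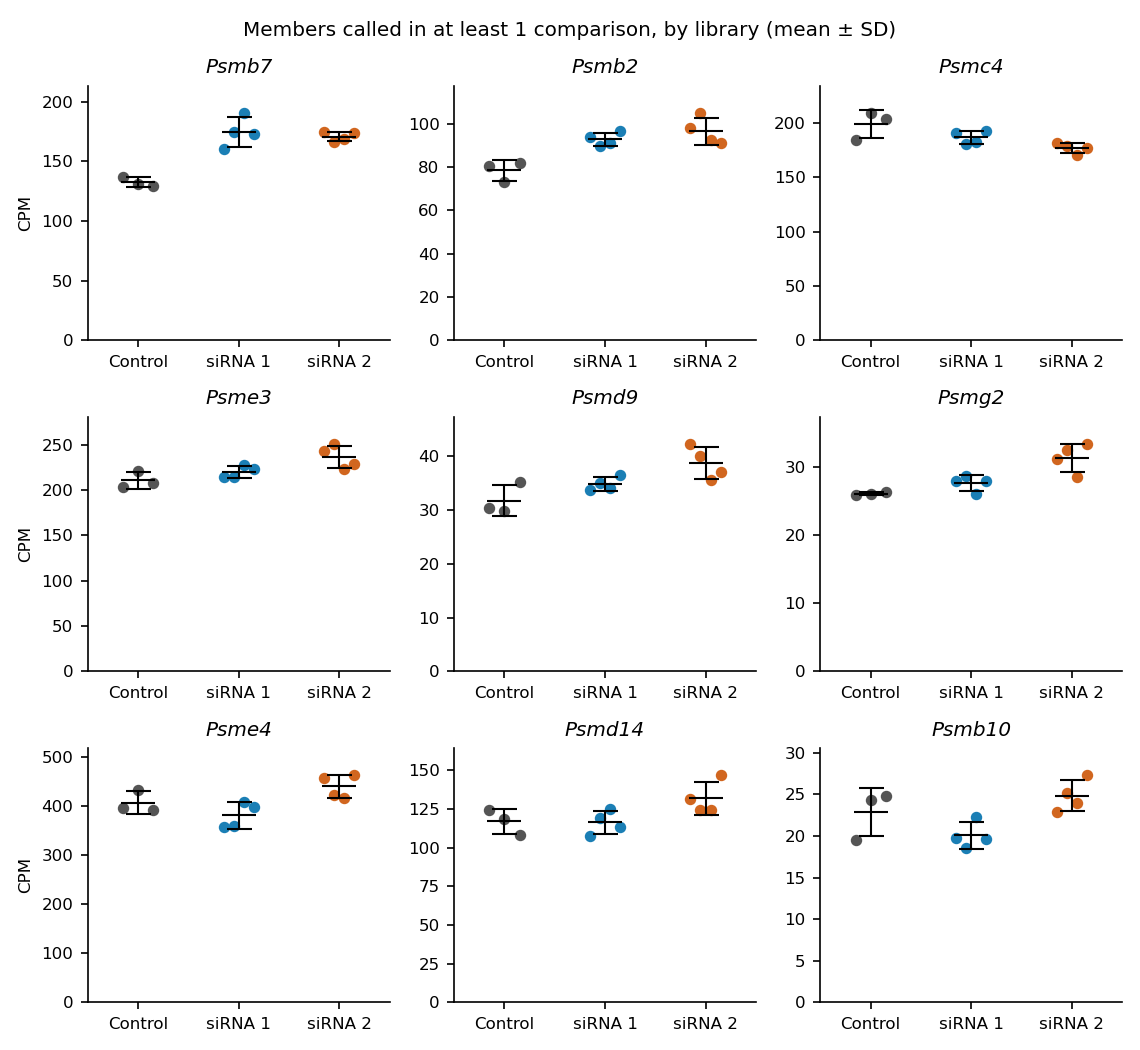
CPM (vertical axes, from 0) of the 9 members called in at least 1 comparison, 1 point per library, with the mean and SD of each group. In Psmb7 and Psmb2 all siRNA libraries stand above control, and in Psme4 and Psmb10 siRNA 2 stands above siRNA 1.

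The immunoproteasome genes were at or near the limit of detection apart from Psmb10. Psmb8 had 7 to 19 and Psmb9 6 to 16 reads per library, and Psmb10 had 133 to 221. Per kilobase of exon in control, Psmb9 was at 0.456 ± 0.0268% of Psmb6, which it replaces, and Psmb8 at 3.34 ± 0.178% of Psmb5 (SD, n = 3). Per kilobase of the principal transcript these ratios were 0.527 ± 0.0309% and 6.93 ± 0.370%. If reads of Psmb5 were dropped as not unique, which was not tested, the second ratio would be raised. Psmb10 was at 34.8 ± 5.34% of Psmb7 in control, at 23.1 ± 1.40% with siRNA 1 (n = 4) and at 29.2 ± 2.28% with siRNA 2 (n = 4). Per kilobase of the principal transcript this last ratio was 15.3 ± 2.35%, 10.2 ± 0.617% and 12.9 ± 1.00%, so its size depends on the length and its order does not. Psmb7, which rose, is the denominator.

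None of the immunoproteasome genes was called against control. Psmb8 had 17, 19 and 16 reads in control and 7, 11, 13 and 15 with siRNA 1, all lower than control, and 12 to 19 with siRNA 2, which overlapped it. Its log2 fold changes were -0.52 (95% interval -1.09 to 0.05, FDR = 0.364) with siRNA 1 and -0.15 (FDR = 0.803) with siRNA 2. Psmb9 had 0.17 (interval -0.47 to 0.82, FDR = 0.854) and 0.02 (FDR = 0.979). With siRNA 1 the interval of Psmb8 includes a 1.5-fold fall, and that of Psmb9 includes a 1.5-fold rise. With siRNA 2 the interval of Psmb8 (-0.68 to 0.38) also includes a 1.5-fold fall. That of Psmb9 (-0.63 to 0.68) includes a 1.5-fold change in either direction. The testis core subunit Psma8 was read at 79 to 118 reads per library, 10.1 to 14.6 CPM, and was not called (0.15, FDR = 0.621, and 0.23, FDR = 0.252). Psmb11, the thymus subunit, with 0 to 2 reads, and Psme2b, which shares 60.2% of its 75-nt words with other genes, mostly Psme2, with 1 to 6 reads, were below the filter. Psmc3ip was at 24.9 to 30.7 CPM and was not called (-0.08, FDR = 0.699, and 0.01, FDR = 0.947). In bulk RNA, fewer cells that express a gene and less RNA per cell cannot be told apart.

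The siRNAs were also compared with each other, since both target CMTR1. Psme4, Psmb10 and Psmd14 were higher with siRNA 2 than with siRNA 1 and 0 members were lower, beside 7.44% of all genes called (4.49% higher). None of these 3 was called against control. Psme4 (PA200, a large activator of the nucleus) was at 398, 434 and 392 CPM in control, at 357, 360, 410 and 399 CPM with siRNA 1 and at 459, 423, 417 and 464 CPM with siRNA 2. All siRNA 2 libraries were above all siRNA 1 libraries, with control overlapping both. The log2 difference was 0.21 (SE 0.05, FDR = 0.00276), with values against control of -0.10 (FDR = 0.326) and 0.11 (FDR = 0.158).

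Psmb10, the immunoproteasome counterpart of Psmb7, was at 19.6, 24.3 and 24.8 CPM in control, at 19.7, 18.6, 22.3 and 19.6 CPM with siRNA 1 and at 22.9, 25.2, 24.0 and 27.3 CPM with siRNA 2. The siRNA groups did not overlap and differed by 0.31 (SE 0.09, FDR = 0.0253). Psmd14 was at 124, 118 and 108 CPM in control, at 107, 119, 125 and 113 CPM with siRNA 1 and at 131, 124, 125 and 147 CPM with siRNA 2. Its difference was 0.18 (SE 0.06, FDR = 0.0368), and siRNA 1 replicate 3 lay within the range of siRNA 2. Neither call held in all libraries. That of Psmb10 was lost without siRNA 1 replicate 1, 2 or 4 or siRNA 2 replicate 2 or 4 (0.26 to 0.31, FDR = 0.0549 to 0.107). That of Psmd14 was lost without siRNA 1 replicate 1, 2 or 4 or siRNA 2 replicate 1 or 4 (0.12 to 0.19, FDR = 0.0658 to 0.213). The call of Psme4 was kept without each of the 8 siRNA libraries in turn.

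The summed level of each class was compared by library. The 14 core genes summed to 1606 to 1737 CPM in control, 1677 to 1828 CPM with siRNA 1 and 1664 to 1804 CPM with siRNA 2, and all groups overlapped. The 19S summed to 2920 to 3043, 2855 to 3056 and 2884 to 3131 CPM. The 7 assembly factors, with Psmd9 and Psmg2 among them, summed to 207.6 to 211.2, 206.9 to 217.9 and 211.5 to 234.7 CPM. With siRNA 2 they thus stood above control, by a narrow margin in the lowest library, and with siRNA 1 they overlapped it. Only the 7 beta genes summed to more in every siRNA library (826 to 894 CPM with siRNA 1, 817 to 875 CPM with siRNA 2) than in control (764 to 814 CPM). This sum includes Psmb7 and Psmb2, the only 2 beta genes with all siRNA libraries above control. The other 5 beta genes were not called with either siRNA. The beta sum is thus not separate from the calls of Psmb7 and Psmb2, and it does not show a shift of the class. The alpha genes summed to 842 to 923 CPM in control and to 847 to 938 CPM over the siRNA libraries.

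Within siRNA 2, replicate 3 was the lowest in the 20S (1664 CPM, others 1772 to 1804), in the 19S (2884 CPM, others 3081 to 3131) and in the assembly factors (212 CPM, others 234 to 235). It also had the largest share of listed reads outside genes, 51.1%, against 47.2% and 46.5% in siRNA 2 replicates 1 and 2 and 48.0 to 50.2% in the control and siRNA 1 libraries. The share was not given for replicate 4, and its part in the level was not tested. Without replicate 3, 10 members instead of 6 were called with siRNA 2, 9 higher and 1 lower, while the share of all genes called went from 9.72% to 10.4%. The 4 added were Psmd1 (0.15, FDR = 0.0407), Psmd11 (0.16, FDR = 0.0380), Psmd12 (0.18, FDR = 0.0244) and Psmd14 (0.20, FDR = 0.0329), all non-ATPase subunits of the 19S. With it they had log2 fold changes of 0.12 to 0.17 and none was called. Without control replicate 2, control replicate 3 or siRNA 2 replicate 1, 3 members were called, beside 5.69%, 5.02% and 6.31% of all genes.

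**Figure D4:**
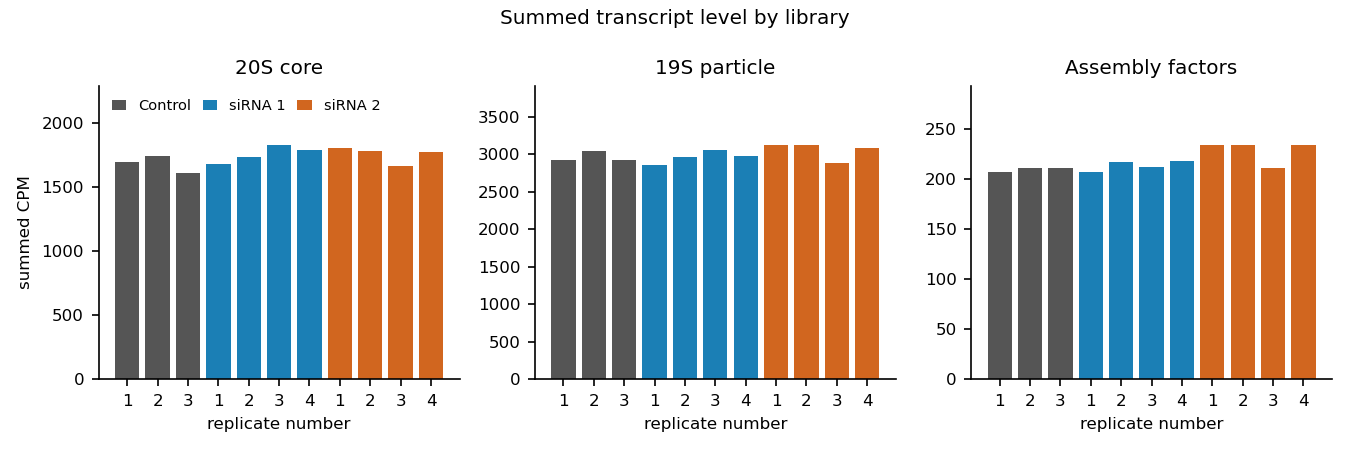
Bars, from 0, give the summed CPM of the 20S core, the 19S particle and the assembly factors in each of the 11 libraries, coloured by group. Replicate 3 of siRNA 2 is the lowest of its group in all 3 panels, and the groups overlap in the 20S and the 19S.

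Genes of the same pathway that fall outside the symbol rule were counted in the same way. Of 37 listed, 36 were tested. With siRNA 1, 0 rose and 1 fell (2.78% called, against 4.67% of all genes), and with siRNA 2, 4 rose and 1 fell (13.9%, against 9.72%). The median log2 fold changes were -0.01 and 0.02, against 0.02 and 0.03 over all genes. Mafg, a small MAF partner of NRF1 and NRF2, fell with both. It was at 151, 153 and 155 CPM in control and at 131 to 134 CPM with siRNA 1 and 131 to 138 CPM with siRNA 2. Its log2 fold changes were -0.20 (SE 0.05, FDR = 0.00665) and -0.18 (SE 0.05, FDR = 0.0103), the latter reaching an FDR of 0.0547 without control replicate 3. Nfe2l1 was at 215 to 220 CPM in control and was not called (0.02, FDR = 0.900, and 0.13, FDR = 0.0920). Without siRNA 2 replicate 4 it was called with siRNA 2 (0.16, FDR = 0.0417).

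Pomp, the chaperone that brings the beta subunits onto the alpha ring, was at 79.4, 79.4 and 77.8 CPM in control. It was at 82.8, 91.4, 91.9 and 90.3 CPM with siRNA 1 and at 92.5, 85.3, 83.3 and 96.8 CPM with siRNA 2. It rose with siRNA 2 (0.18, SE 0.06, FDR = 0.0431), and its value with siRNA 1 was 0.18 (SE 0.06, FDR = 0.0783). Both were near the threshold: the call with siRNA 2 was lost with TMM factors (0.16, FDR = 0.0900) or without any 1 control replicate or siRNA 2 replicate 1 or 4 (0.14 to 0.19, FDR = 0.0890 to 0.157). Without siRNA 1 replicate 1, Pomp was called with siRNA 1 (0.21, FDR = 0.0470). Ecpas, a proteasome-binding adaptor, rose with siRNA 2 (0.29, SE 0.05, FDR = 0.000177), its libraries being at 123 to 139 CPM against 104 to 110 CPM in control. With siRNA 1 it was at 114 to 122 CPM (0.15, FDR = 0.103).

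The shuttle factor Ubqln1 (0.17, FDR = 0.0210) and the VCP cofactor Nploc4 (0.15, FDR = 0.0444) also rose with siRNA 2, and their values with siRNA 1 were 0.04 (FDR = 0.728) and -0.02 (FDR = 0.918). Both calls were lost with TMM factors (FDR = 0.0624 and 0.111), and both without control replicate 1 or 3 or siRNA 2 replicate 1 or 2 (FDR = 0.0591 to 0.139), that of Nploc4 also without control replicate 2 (FDR = 0.0839). The ubiquitin receptor Adrm1 of the 19S, which the symbol rule leaves out, had values of -0.03 (FDR = 0.825) and -0.0015 (FDR = 0.992). Of 10 genes of MHC class I antigen processing, which the immunoproteasome serves, 0 were called with siRNA 1 (all genes 4.67%) and 1 with siRNA 2 (all genes 9.72%). This was H2-D1, at 13.7 to 14.7 CPM in control and 16.5 to 20.2 CPM with siRNA 2 (0.38, SE 0.10, FDR = 0.0139). Without control replicate 3 its FDR was 0.0695.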

How the data were processed

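The authors deposited counts: whole reads per Ensembl gene in each of 11 libraries. Per the methods and the submitters' processing notes, the rRNA-depleted, directional libraries went through cutadapt, STAR (GRCm38), Picard's removal of PCR duplicates, which can lower abundant short genes, and featureCounts. The summary lines closing 10 of the tables have another counter's layout, and were used only for the share of reads outside genes. The strand setting and tool versions are not given in the sources used here.

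GENCODE vM21, on the same build, holds 54809 of the 54838 identifiers and gave symbols, exon lengths and transcripts. A gene entered the test with more than 1 CPM in at least 4 libraries. The quasi-likelihood F-test of edgeR 4.0.16 (R 4.3.3), tested on simulated data, was run in 1 fit of the 3 groups after scaling to the total count of each library, the scaling named in the methods. FDR is the Benjamini-Hochberg value over all 16073 genes tested, called at 0.05. The SE is the log2 fold change over the square root of F. Shared words are 75-nt stretches, as long as the reads, that occur in another gene. Replicate pairs differed by more than counting error (chi-square per gene 1.31 to 2.96 over 15 pairs).

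Named members are those called in any comparison, the extremes of each class and of the control levels, all immunoproteasome, tissue-restricted and below-filter genes, and called pathway genes with Nfe2l1, Pomp and Adrm1. Psmd1, Psmd11, Psmd12, Psmb5, Psmb6, Psme1 and the markers were named after their values were seen. Members, lists and tests were chosen with earlier results of these data known.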

Additional observations from a re-analysis of the deposited data

Results flagged for a closer look

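In siRNA 1 replicate 1, Psmd5 was at 72.9 CPM against 79.8 to 80.0 CPM in the other 3 siRNA 1 libraries. Its gap to the nearest of them was 0.962 of the range of the group, above the 95% critical value of Dixon's test for 4 samples. It was the only library so set apart among the 96 groups of 4 libraries examined (48 members in each of the siRNA groups), where chance alone sets apart about 1 group in 20. Psmd14 (log2 difference 0.18, FDR = 0.0368), Psme4 (0.21, FDR = 0.00276) and Psmb10 (0.31, FDR = 0.0253) differed between the siRNAs in the quasi-likelihood test of siRNA 2 against siRNA 1.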

How the results depend on the processing

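Psmb7 and Psmb2 were called with siRNA 2 and with the mean of both siRNAs under every alternative that names called members, other than the fold change threshold, and Psmb7 likewise with siRNA 1. A fold change of at least 1.5 left 0 members in all 4 comparisons. DESeq2 1.42.0 called 3 members with siRNA 2 (Psmb2, Psmb7 and Psmc4) and 1 in siRNA 2 against siRNA 1 (Psme4). Leaving out 1 replicate gave 1 to 2 members with siRNA 1, 3 to 10 with siRNA 2, 2 to 4 with the mean of both and 1 to 6 in siRNA 2 against siRNA 1. The lowest count with siRNA 1 came without control replicate 2, and the highest of the mean of both (4) without siRNA 2 replicate 3. In siRNA 2 against siRNA 1, 1 member was called without siRNA 1 replicate 1, 2 or 4 or siRNA 2 replicate 4, 5 without siRNA 1 replicate 3 and 6 without siRNA 2 replicate 3. TMM factors, edgeR's exactTest, both other filters, a fit of 2 groups, and members sharing under 10% of words kept every count within 1.5 times. With at least 1 read in any library, 6 members were again called with siRNA 2, but Psmg2 was lost (FDR = 0.0529) and Psmd14 gained (0.17, FDR = 0.0487), and Pomp (FDR = 0.0602) and Nploc4 (FDR = 0.0885) were lost. exactTest was not run for the mean of both siRNAs, and no class median moved by more than the spread between replicates.

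Replicate numbers showed no clear pairing of the samples. Deviations of same-numbered libraries correlated with a mean r of 0.0096 (-0.0574 to 0.0616 over 10 pairs). Those of other numbers had a mean r of -0.0032 (-0.0723 to 0.0742 over 30 pairs). Of 11 libraries, 5 matched best with their own number, and the number that chance would give was not worked out. With the replicate block, 2, 5, 2 and 3 members were called in the 4 comparisons, and Psmg2 with siRNA 2 was lost (0.25, FDR = 0.0557). Of the pathway genes, the block with siRNA 2 lost Pomp (0.16, FDR = 0.108) and Nploc4 (0.15, FDR = 0.0587) and added Nfe2l1 (0.15, FDR = 0.0441). No direction of a called value was reversed. Psmb8 and Psmb9 had at most 19 reads per library and the widest intervals, and Psmb11 and Psme2b had too few reads to be tested.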
